A study of Mus musculus with 6 samples.

Results

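Border-associated macrophages are the resident macrophages of the perivascular spaces, the meninges and the choroid plexus, and 10 genes that mark them, of 24421 genes in the expression tables, were followed in hippocampal astrocyte preparations after diphtheria toxin (DT) or vehicle. The genes were *Mrc1*, *Lyve1*, *Stab1*, *Cd163*, *Siglec1*, *Folr2*, *F13a1*, *Pf4*, *Fcna* and *Cbr2*, taken as the rows whose gene symbol matched, and all 10 were found. They were chosen by what was already known of their levels in these DT and PBS libraries, so their differences between DT and PBS are a description and carry no test.

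The study asked which cells clear debris when microglia are ablated, and profiled astrocytes by RNA sequencing. All mice were *Siglech* dtr/dtr on a C57BL/6 background: both alleles carry the diphtheria toxin receptor at *Siglech*. In the brain this gene is expressed nearly exclusively by microglia, so that DT kills these cells. The paper names 1 exception among border macrophages: a fraction of those of the choroid plexus also expresses its protein, Siglec-H. Homozygotes express less *Siglech* whatever the injection. The 3 PBS libraries and 3 DT libraries were made from hippocampi taken 2 days after 1 intraperitoneal injection of PBS or of DT at 50 µg/kg, and each library pooled 2 perfused mice, adult males according to the general methods. Cells bound by CD11b beads were removed before astrocytes were captured with beads against ACSA-2, an astrocyte surface antigen. No library came from DT-treated mice without the receptor, so loss of microglia and exposure to toxin cannot be told apart.

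Border-associated macrophages take up proteins, glycans and debris from the fluid around vessels and at the brain surface, using scavenger and lectin receptors. The mannose receptor encoded by *Mrc1* (CD206) separates them from parenchymal microglia, and *Lyve1* is carried by a subset of them. They share *Csf1r*, complement and lysosomal genes with microglia, and several of their markers are also made elsewhere: *Lyve1* and *Stab1* in endothelium, *Pf4* in platelets and *F13a1* in monocytes.

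The libraries held 21704891 to 32933975 reads assigned to genes after PBS and 22478808 to 30339811 after DT, so 1 read was worth 0.0301 to 0.0460 CPM (reads scaled to the library total). The astrocyte list (10 genes, of which *Gfap* was called higher) summed to 56279 to 66999 CPM in every library, and *Siglech* had 21, 71 and 42 reads in PBS 1, 2 and 3 and 0 in each DT library. A gene was tested when its mean over the 6 libraries reached 0.5 CPM, with limma on log2(CPM + 0.1), and called at an adjusted p below 0.05 over the 15137 genes tested. Of these, 84 genes (0.555%) were called higher and 24 (0.159%) lower after DT. All 10 members passed this filter, but *Siglec1*, *Fcna* and *Cbr2* had means under 0.5 CPM after PBS and passed only through their DT libraries.

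The summed CPM of the 10 members was 46.1, 40.4 and 61.0 in PBS 1, 2 and 3 and 114, 115 and 100 in DT 1, 2 and 3, or 49.2 ± 10.7 after PBS and 110 ± 8.18 after DT (SD, n = 3). All 10 fitted log2 differences were above 0, with a median of 1.47 beside -0.01 over all genes tested. In 7 of the 10 every DT library stood above every PBS library, an arrangement shown by 8.75% of all genes tested, with 7.57% in the opposite one. The members *Mrc1*, *Lyve1* and *F13a1* (3 of 10) were called higher and 0 lower; nothing is read from these counts beside the shares of 0.555% and 0.159% over all genes, since the same contrast chose the genes. In bulk RNA, more of these macrophages in a pool and more of the transcripts per cell cannot be told apart. In hippocampal sections from mice of the same genotype and day, the paper counted perivascular macrophages stained for the mannose receptor. It reports them as intact after DT and still placed along vessels. It gives no such count for macrophages of the meninges or the choroid plexus. The number of macrophages captured in the sequenced pools was not tested.

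**Figure D1:**
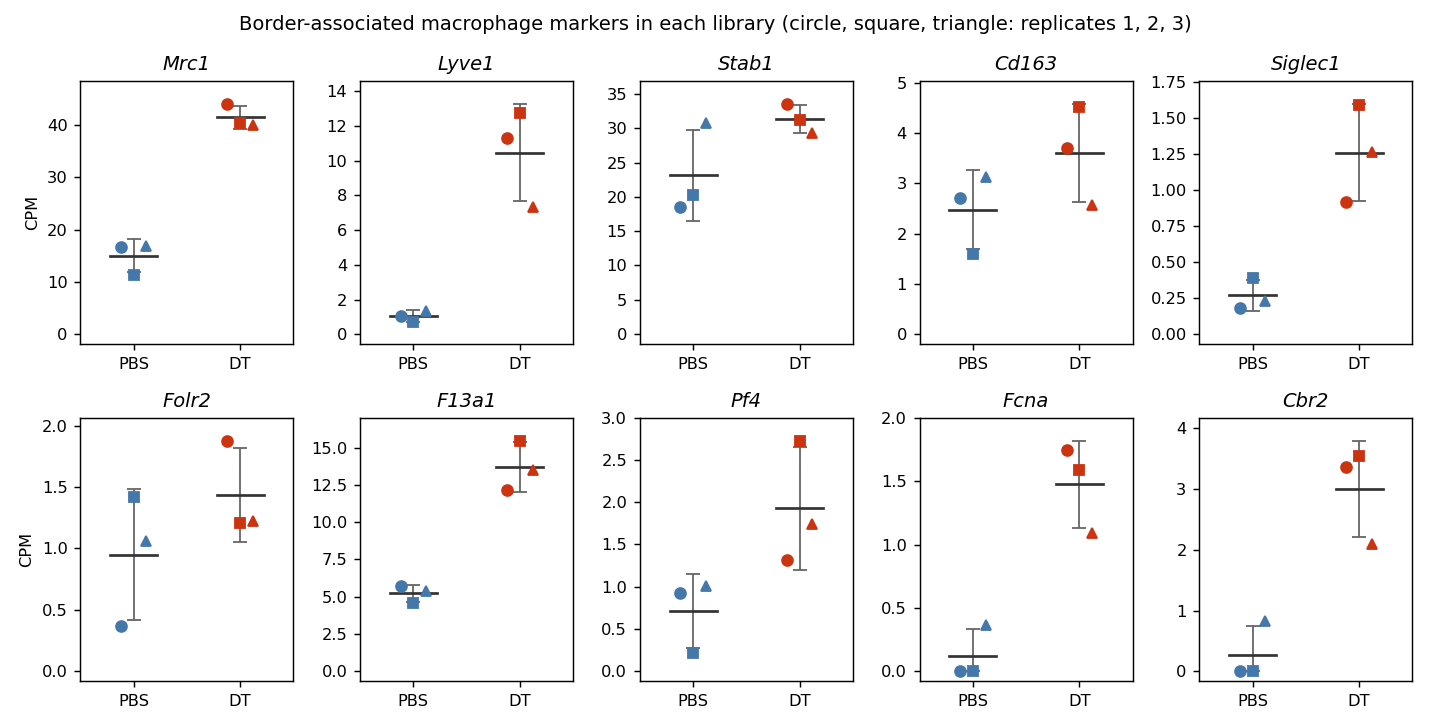
CPM of the 10 members in each PBS (blue) and DT (red) library, with the group mean (line) and SD (bar) over 3 libraries, on axes from 0. *Mrc1*, *Lyve1*, *F13a1*, *Siglec1*, *Pf4*, *Fcna* and *Cbr2* had no overlap between the groups, whereas *Cd163*, *Stab1* and *Folr2* overlapped.

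*Mrc1* lies at chr2:14229392-14332057 on the plus strand (mm10, GENCODE M21) and encodes the mannose receptor, an endocytic lectin. Its CPM were 16.7, 11.3 and 16.9 in the PBS libraries and 44.0, 40.3 and 40.1 in the DT libraries, from 362 to 375 reads and from 919 to 1241 reads. The DT values were all close to each other and all above the PBS values, of which PBS 2 was the lowest. The mean went from 15.0 ± 3.18 to 41.5 ± 2.22 CPM (SD, n = 3), a log2 difference of 1.49 ± 0.15 (SE) that ranged from 1.30 to 1.59 when each library was left out in turn. The gene for the microRNA *Mir511* lies within *Mrc1* on the same strand.

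*Lyve1* (chr7:110850607-110863239, minus strand) encodes a hyaluronan receptor first known from lymphatic vessels. It had 23, 23 and 30 reads after PBS and 259, 392 and 168 after DT, or 1.06, 0.693 and 1.38 CPM against 11.3, 12.7 and 7.33 CPM. The lowest DT library, DT 3, was still above every PBS library. The mean was 1.04 ± 0.343 CPM after PBS and 10.5 ± 2.80 after DT, with a log2 difference of 3.21 ± 0.30 and a range of 2.97 to 3.45 over the libraries left out.

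*Stab1* (chr14:31139013-31168641, minus strand) encodes stabilin-1, a scavenger receptor for modified lipoproteins and matrix fragments. Its CPM were 18.5, 20.2 and 30.7 after PBS and 33.5, 31.1 and 29.4 after DT. The groups overlapped, because PBS 3 stood above DT 3, and the log2 difference was 0.47 ± 0.18. It was not called with all libraries and was called without PBS replicate 3, at a log2 difference of 0.69. *Nt5dc2* overlaps it on the opposite strand, and reads were mapped with strand information.

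*Cd163* (chr6:124304656-124330527, plus strand) encodes the receptor for haptoglobin-hemoglobin complexes. It had 2.72, 1.60 and 3.12 CPM after PBS and 3.71, 4.52 and 2.57 after DT. DT 3 was below 2 of the PBS libraries, and the log2 difference was 0.54 ± 0.31. *Siglec1* (chr2:131069220-131086765, minus strand) encodes sialoadhesin, which binds sialic acid on other cells. It had 4, 13 and 5 reads after PBS and 21, 49 and 29 after DT, or 0.184, 0.392 and 0.230 CPM against 0.917, 1.59 and 1.27. The DT libraries were all higher, at a log2 difference of 1.89 ± 0.41, but the PBS side rested on few reads, and the gene was not called by limma and was called by DESeq2.

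*Folr2* (chr7:101839988-101857194, minus strand) encodes folate receptor beta. It had 8, 47 and 23 reads after PBS and 43, 37 and 28 after DT, or 0.368, 1.42 and 1.06 CPM against 1.88, 1.20 and 1.22. The groups overlapped, with PBS 2 above DT 2 and DT 3, and the log2 difference was 0.68 ± 0.46. It was 0.18 without PBS replicate 1, the library with the fewest *Folr2* reads.

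The next pair of members encode secreted proteins tied to clotting. *F13a1* (chr13:36867178-37050244, minus strand) encodes the A subunit of coagulation factor XIII, a transglutaminase that cross-links fibrin. Its CPM were 5.71, 4.58 and 5.37 after PBS and 12.2, 15.5 and 13.5 after DT. The replicates of each group were tight and the groups apart, with means of 5.22 ± 0.579 and 13.7 ± 1.67 CPM and a log2 difference of 1.38 ± 0.15, from 1.29 to 1.46 over the libraries left out. *Pf4* (chr5:90772435-90773383, plus strand) encodes platelet factor 4, a chemokine of platelets and some macrophages. It had 20, 7 and 22 reads after PBS and 30, 84 and 40 after DT, or 0.921, 0.211 and 1.01 CPM against 1.31, 2.73 and 1.75. The DT libraries were higher without overlap, at a log2 difference of 1.46 ± 0.53, but this was 0.87 without PBS replicate 2, which had the fewest reads.

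*Fcna* and *Cbr2* had nearly all of their reads after DT. *Fcna* (chr2:25624666-25628030, minus strand) encodes ficolin A, a lectin of the complement pathway, and *Cbr2* (chr11:120729489-120732114, minus strand) encodes a carbonyl reductase. *Fcna* had 0, 0 and 8 reads after PBS and 40, 49 and 25 after DT, or 0, 0 and 0.367 CPM against 1.75, 1.59 and 1.09. *Cbr2* had 0, 0 and 18 reads after PBS and 77, 109 and 48 after DT, or 0, 0 and 0.827 CPM against 3.36, 3.54 and 2.09. Both genes were thus read in 1 PBS library, PBS 3, and in every DT library. A count of 0 allows up to 3 reads, or 0.138 CPM in PBS 1 and 0.0904 CPM in PBS 2, from counting error alone. The fitted log2 differences of 3.21 ± 0.66 for *Fcna* and 3.85 ± 0.82 for *Cbr2* depend on the pseudocount and were 1.15 and 1.69 with a pseudocount of 1. Neither was called with the pseudocount of 0.1 and all 6 libraries; both were called with a pseudocount of 0.5 or 1 and *Fcna* by DESeq2. Both were also called without PBS replicate 3, at 3.95 and 4.92, where the PBS side holds 0 reads and the fitted value is no bound. *Fcnaos* overlaps *Fcna* on the opposite strand.

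**Figure D2:**
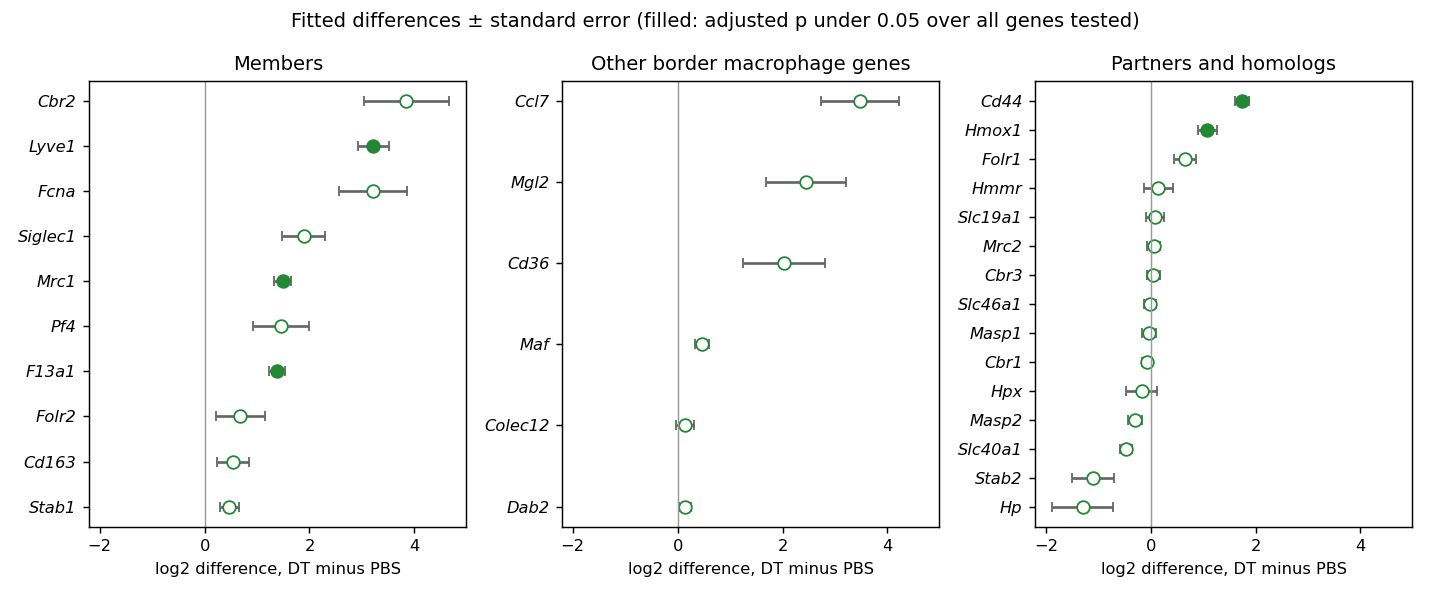
Log2 difference, DT minus PBS, with its standard error from limma on log2(CPM + 0.1), for the 10 members, 6 of the 7 other border macrophage genes tested and the 15 partners and homologs tested; filled points were called. All 10 members lie right of 0, with *Mrc1*, *Lyve1* and *F13a1* filled, and *Cd44* and *Hmox1* are the filled points among the partners.

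The starts of these genes are shown because the members differed in one direction to very different extents. RefSeq promoter windows (GRCm38.p6, the same coordinates as mm10) were matched for 8 of the 10 members, in 10 windows of 250 bases before and 50 after a start; *Lyve1* and *Siglec1* were not matched. The 250 bases upstream are given 5′ to 3′ on the strand of the gene, with GAGGAA, the PU box of the myeloid factor PU.1, in capitals on either strand (TTCCTC where it lies on the other strand). *Mrc1* (chr2:14229164-14229413) and *F13a1* (chr13:37050245-37050494) are members called higher, *Fcna* (chr2:25627975-25628224) and *Cbr2* (chr11:120732022-120732271) are those nearly without reads after PBS, and *Cd163* (chr6:124304401-124304650) is a member whose groups overlapped and whose window held no such box.
Mrc1: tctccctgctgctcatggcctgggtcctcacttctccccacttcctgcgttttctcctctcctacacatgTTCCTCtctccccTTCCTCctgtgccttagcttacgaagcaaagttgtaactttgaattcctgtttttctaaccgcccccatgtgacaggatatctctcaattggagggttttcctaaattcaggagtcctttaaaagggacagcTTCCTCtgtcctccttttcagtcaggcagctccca
F13a1: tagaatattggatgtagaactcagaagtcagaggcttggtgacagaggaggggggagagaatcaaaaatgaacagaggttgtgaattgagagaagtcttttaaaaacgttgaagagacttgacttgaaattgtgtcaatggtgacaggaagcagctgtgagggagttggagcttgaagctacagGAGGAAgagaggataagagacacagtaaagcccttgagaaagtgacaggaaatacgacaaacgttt
Fcna: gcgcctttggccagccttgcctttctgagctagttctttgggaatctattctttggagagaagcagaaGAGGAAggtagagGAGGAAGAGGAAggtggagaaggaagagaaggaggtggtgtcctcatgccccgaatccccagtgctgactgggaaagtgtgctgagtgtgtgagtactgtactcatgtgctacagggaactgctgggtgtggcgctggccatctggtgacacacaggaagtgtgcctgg
Cbr2: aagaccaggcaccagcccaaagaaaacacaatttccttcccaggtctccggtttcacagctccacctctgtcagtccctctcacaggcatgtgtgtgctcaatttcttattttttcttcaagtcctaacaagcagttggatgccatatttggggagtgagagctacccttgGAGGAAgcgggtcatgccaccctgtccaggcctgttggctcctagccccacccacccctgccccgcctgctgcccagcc
Cd163: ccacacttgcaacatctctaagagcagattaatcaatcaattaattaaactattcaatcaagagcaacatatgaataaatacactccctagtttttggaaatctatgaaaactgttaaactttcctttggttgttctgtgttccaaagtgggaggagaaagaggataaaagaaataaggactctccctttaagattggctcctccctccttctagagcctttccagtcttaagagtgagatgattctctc

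The PU box was found in 7 of the 10 member windows, those of *Mrc1*, *F13a1* (both windows), *Fcna*, *Cbr2*, *Pf4* and *Stab1*, and in 28.3% of the 32851 promoter windows of the table. *Mrc1* had 3 matches, first bases at -180, -167 and -35 from the start, and *Fcna* had 4, of which 3 lie upstream at -182, -169 and -163. TGCTGA, the core of the MAF recognition element, was found in 5 of the 10 (*Fcna*, both of *Folr2*, *Cbr2* and *Stab1*) and in 19.5% of all windows. AANNGAAA, an IRF element, was found in 3 (*Cd163*, *Folr2* and *F13a1*) and in 23.9%, and TTCNNNGAA, a STAT element, in 0 and in 8.3%. Both strands were searched for each motif, *F13a1* and *Folr2* have 2 windows each, and these matches describe letters in the windows. Members with the box in a window had log2 differences from 0.47 (*Stab1*) to 3.85 (*Cbr2*), and *Cd163* and *Folr2*, without it, were at 0.54 and 0.68. *Lyve1* (3.21) and *Siglec1* (1.89) had no window, and a link between the box and these differences was not tested.

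Compared per transcript length, in TPM (transcript reads scaled for length), *Stab1* and *Mrc1* were the most abundant members after PBS, at 8.47 ± 2.46 and 8.22 ± 1.65 TPM (SD, n = 3). They were followed by *F13a1* at 3.92, *Pf4* at 3.45, *Folr2* at 2.30, *Cd163* at 1.60, *Lyve1* at 1.14, *Cbr2* at 0.761, *Fcna* at 0.262 and *Siglec1* at 0.118 TPM. Of these neighbours in order, *Mrc1* and *F13a1* were the pair whose libraries did not overlap. After DT *Mrc1* led at 23.0 ± 0.788 TPM, above *Lyve1* at 11.8, *Stab1* at 11.6, *F13a1* at 10.5, *Pf4* at 9.59, *Cbr2* at 8.62, *Folr2* at 3.66, *Fcna* at 3.26, *Cd163* at 2.37 and *Siglec1* at 0.574 TPM. Neighbours were separated without overlap between *Mrc1* and *Lyve1*, between *Cbr2* and *Folr2*, and between *Cd163* and *Siglec1*. *Lyve1* thus moved from the seventh to the second place, next to *Stab1*.

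The makeup of the member transcripts differed between the groups. *Mrc1* made up 24.0% to 32.1% of the summed member TPM after PBS and 23.7% to 30.0% after DT, and *F13a1* 10.4% to 15.1% and 10.7% to 13.9%, so that both kept overlapping shares. The share of *Lyve1* was 3.21% to 4.03% after PBS and 11.2% to 15.3% after DT, that of *Cbr2* 0% to 5.87% and 8.14% to 11.2%, and that of *Fcna* 0% to 2.02% and 3.24% to 4.47%. The share of *Stab1* was lower after DT, at 12.2% to 14.6% beside 23.6% to 31.7%, and so was that of *Cd163*, at 2.27% to 3.18% beside 4.39% to 6.10%. In CPM, of the 60.5 CPM by which the summed mean was higher after DT, *Mrc1* gave 43.8%, *Lyve1* 15.6%, *F13a1* 14.1% and *Stab1* 13.6%.

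**Figure D3:**
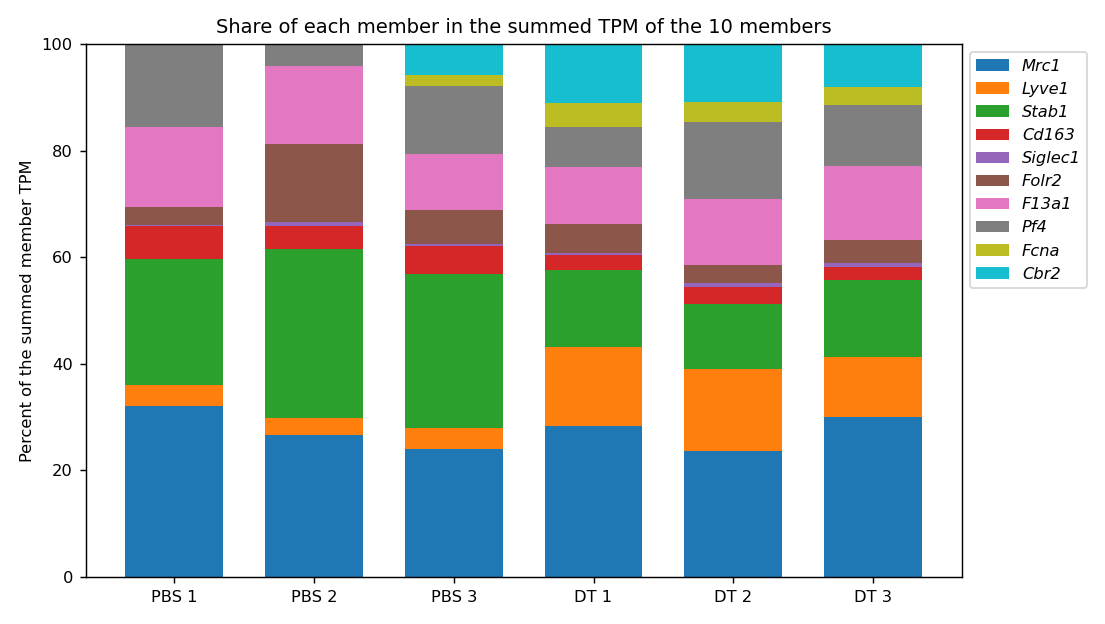
Share of each member, in percent, of the summed TPM of the 10 members in each library. The *Mrc1* share stays between 23.7% and 32.1% in all 6 libraries, the *Lyve1* share is 3.21% to 4.03% after PBS and 11.2% to 15.3% after DT, and the *Stab1* share is smaller in the DT libraries.

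Ratios taken within a library do not depend on its depth or scaling. The *Lyve1* to *Mrc1* ratio of TPM was 0.126, 0.121 and 0.164 after PBS and 0.523, 0.644 and 0.372 after DT, and the *Stab1* to *Mrc1* ratio was 0.736, 1.19 and 1.21 after PBS and 0.506, 0.514 and 0.487 after DT. The 2 ratios lay apart in opposite directions. The *F13a1* to *Mrc1* ratio overlapped, at 0.470, 0.554 and 0.433 after PBS and 0.379, 0.527 and 0.462 after DT. *Csf1r*, the receptor for CSF1 that microglia and border-associated macrophages share, went from 2.08, 3.51 and 2.53 times the *Mrc1* TPM after PBS to 0.286, 0.289 and 0.263 times after DT.

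**Figure D4:**
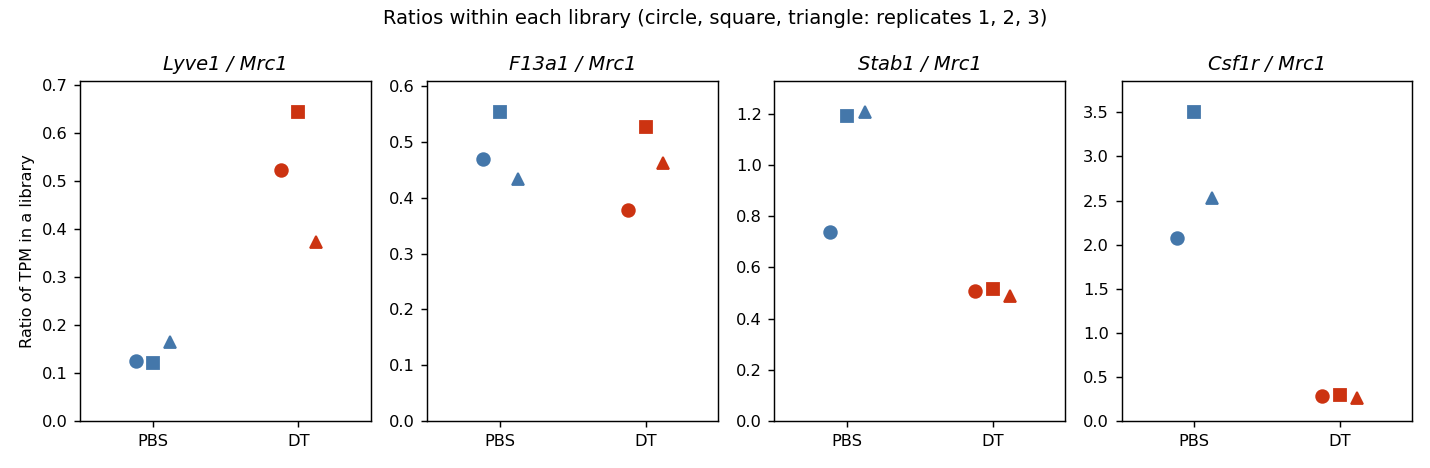
Ratio of the TPM of *Lyve1*, *F13a1*, *Stab1* and *Csf1r* to that of *Mrc1* in each PBS (blue) and DT (red) library, on axes from 0. The *Lyve1* ratio is higher and the *Stab1* and *Csf1r* ratios lower in all DT libraries, and the *F13a1* ratio overlaps between the groups.

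A list of 22 other genes of these macrophages was read beside the members. Of these, 7 were tested and 15 were under the filter, 7 of them with no read in any library; 0 were called higher and 0 lower by limma, 5 had an unadjusted p below 0.05 (10.4% of all genes tested did), and edgeR and DESeq2 on the recovered reads called 0 as well. The median log2 difference of the 7 was 0.46, beside -0.01 over all genes tested, but 3 of them (*Ccl7*, *Mgl2* and *Cd36*) had means under 0.5 CPM after PBS and passed the filter only through their DT libraries, which raises this median. *Ms4a7*, a membrane marker of border-associated macrophages, had 0, 6 and 5 reads after PBS and 8, 13 and 0 after DT, and *Cd209f*, a lectin gene, had 0, 1 and 11 after PBS and 11, 15 and 4 after DT, both with overlap. *Maf*, a transcription factor of resident macrophages, had a log2 difference of 0.46 ± 0.13 (limma adjusted p = 0.282).

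A further 5 of those tested are named after their values were seen. The chemokine gene *Ccl7* had 12, 0 and 0 reads after PBS and 60, 70 and 30 after DT, a log2 difference of 3.48 ± 0.74 (limma adjusted p = 0.111) that was called without PBS replicate 1 (adjusted p = 0.0117), where the PBS side holds 0 reads. The lectin *Mgl2* (2.45, adjusted p = 0.323) and the scavenger receptor *Cd36* (2.03, adjusted p = 0.426) were also few in reads. *Dab2*, an endocytic adaptor, and *Colec12*, a scavenger receptor, both lay at 0.14 (limma adjusted p = 0.704 and 0.813).

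Among 19 binding partners, downstream genes and homologs of the members, 15 were tested, 2 were called higher and 0 lower. *Cd44*, which like *Lyve1* encodes a hyaluronan receptor but is widely expressed, rose after DT: it had 15.0 ± 2.85 CPM in the PBS and 49.8 ± 2.09 CPM in the DT libraries (SD, n = 3), 1.75 ± 0.14 higher on the log2 scale (limma adjusted p = 0.000881). *Hmox1*, which encodes the heme oxygenase that acts after CD163 has taken up hemoglobin, rose from 6.28 ± 1.43 to 13.2 ± 0.868 CPM, a log2 difference of 1.08 ± 0.18 (limma adjusted p = 0.0379). The *Hmox1* call held in 9 of 17 alternatives, with adjusted p up to 0.206, and was lost without PBS replicate 2, PBS replicate 3 or any 1 DT replicate. *Stab2*, the homolog of *Stab1*, had a log2 difference of -1.10 (adjusted p = 0.393), and *Mrc2*, the homolog of *Mrc1*, 0.06 (adjusted p = 0.917). *Folr1*, which the choroid plexus also expresses, was at 0.66 (adjusted p = 0.347), and the iron exporter *Slc40a1* at -0.47 (adjusted p = 0.189).

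Genes of other cell types moved beside the members. Of 11 microglial genes all were below 0 and 6 were called lower, with sums of 199 to 221 CPM after PBS and 130 to 148 after DT. The most abundant of them, *Sall1*, is named after its values were seen. It had 71.1 to 87.2 CPM after PBS and 72.5 to 83.0 after DT, with overlap. Its log2 difference was -0.04 (limma adjusted p = 0.930), so the list sums fell less than they would without it. Of 18 genes shared by myeloid cells 14 were below 0, with 3 called lower and 1 higher, and sums of 113 to 158 CPM and 61.8 to 73.3 CPM. *Itgam*, which encodes the CD11b that the depletion beads bind, fell by 3.09 ± 0.23 on the log2 scale (limma adjusted p = 0.000704), *Csf1r* fell by 1.74 ± 0.12 (adjusted p = 0.000491) and *Ctss* fell by 2.14 ± 0.15 (adjusted p = 0.000612). *Cd68*, a lysosomal macrophage gene, rose by 1.21 ± 0.19 (adjusted p = 0.0350, called in 7 of 17 alternatives). The genes called lower were *Itgam*, *Csf1r* and *Ctss*, with mean CPM of 15.9, 28.4 and 33.9 after PBS and 1.80, 8.44 and 7.58 after DT. The mean shared myeloid sum was 137 CPM after PBS and 66.7 after DT, so these 3 genes carried most of its fall. None of the rest of the list was called lower. The summed member CPM was 0.407, 0.286 and 0.386 times the shared myeloid sum after PBS and 1.55, 1.86 and 1.55 times after DT. The shared myeloid sum in this ratio includes the same 3 genes. The part of a differing bead depletion in the member values was not tested.

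**Figure D5:**
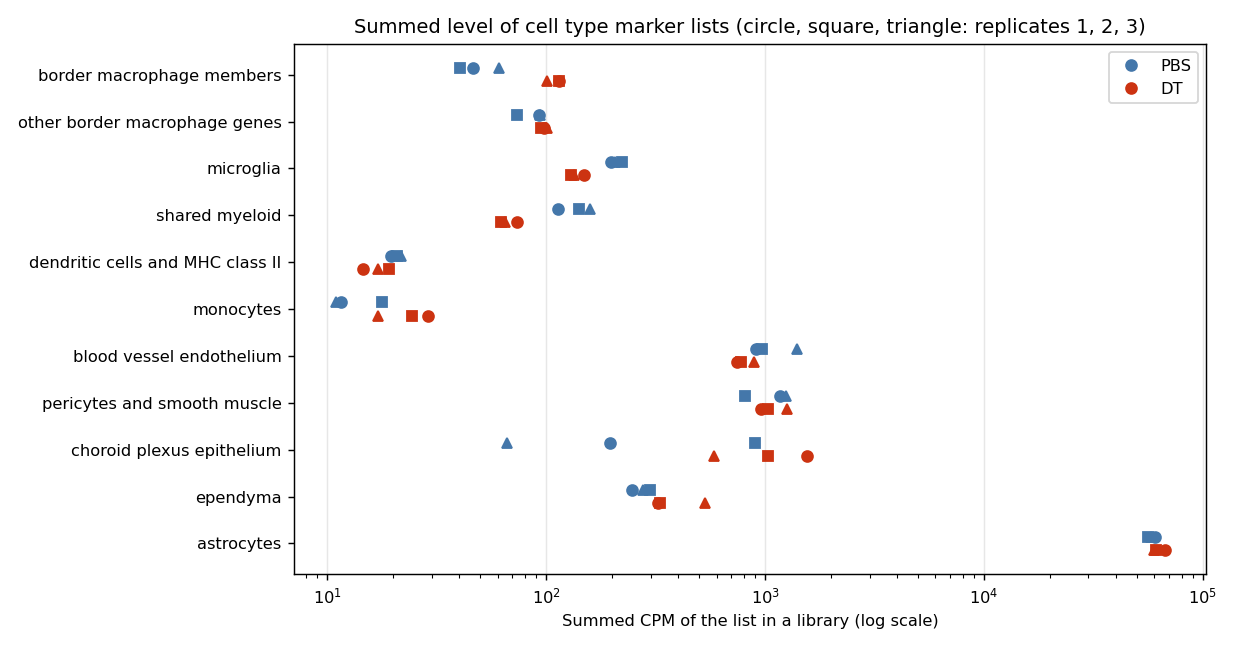
Summed CPM (log axis) of the members and of 10 marker lists in each PBS (blue) and DT (red) library. The member sums are 40.4 to 61.0 CPM after PBS and 100 to 115 after DT, the microglial and shared myeloid sums are lower in all DT libraries, and the choroid plexus sums overlap between the groups.

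Blood cells were checked because *F13a1*, *Pf4* and *Siglec1* are also expressed there. Of 8 monocyte genes 6 were under the filter, *Ccr2* had 0, 16 and 11 reads after PBS and 5, 0 and 3 after DT, and *Chil3* and *Plac8* had none. Their summed CPM was 10.9 to 17.7 after PBS and 17.0 to 28.8 after DT, and none was called. Most of this sum was *Ace*, named after its values were seen, at 8.22 to 16.2 and 15.7 to 27.7 CPM, and the other 7 genes summed to 1.24 to 2.66 CPM after PBS and 1.05 to 1.53 after DT. Within each group, *Ace* put the libraries in the same order as the choroid plexus epithelium sums given below. The cells behind the *Ace* reads were not tested. The platelet gene *Ppbp* had 2 reads, both in DT 3, *Gp6* had none, and the 9 platelet genes summed to 10.9 to 31.6 CPM after PBS and 10.2 to 23.6 after DT. Most of this sum was *Gp1bb*, named after its values were seen, and the other 8 genes summed to 3.74 to 5.28 CPM after PBS and 5.13 to 7.42 after DT. Among them *Itga2b* was higher in each DT library, at 1.54 to 2.16 and 2.18 to 3.92 CPM, and was not called (limma adjusted p = 0.473). The part of platelets in the *Pf4* values was not tested.

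Vessels were checked because *Lyve1* and *Stab1* are endothelial genes as well. The lymphatic genes *Ccl21a* and *Mmrn1* had no read in any library and *Prox1*, which other brain cells also express, lay at 0.01. *Pdpn*, an astrocyte gene too, rose by 0.39 (limma adjusted p = 0.0346, called in 11 of 17 alternatives) and was the 1 called of the 4 lymphatic genes tested. The sum of the 6 listed was 202 to 212 CPM after PBS and 240 to 241 after DT; without *Pdpn* the other 5 summed to 88.1 to 102 and 84.7 to 92.6 CPM, with overlap. All 12 genes of blood vessel endothelium lay below 0 with 0 called (7 at an unadjusted p below 0.05, beside 10.4% of all genes), at sums of 910 to 1396 CPM after PBS and 742 to 894 after DT. The endothelial sum was highest in PBS 3 (1396 CPM, beside 910 and 967 in PBS 1 and 2), which also had the highest *Stab1* value after PBS (30.7 CPM). In the DT group, DT 3 had the highest endothelial sum (894 CPM) and the lowest *Stab1* value (29.4 CPM). The part of endothelial cells in the *Lyve1* and *Stab1* values was not tested.

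The epithelium of the choroid plexus, a tissue that contains border-associated macrophages, moved in the same direction as the members. All 12 of its genes lay above 0, with 0 called by limma and 10 at an unadjusted p below 0.05, beside 10.4% of all genes. Their sums were 195, 896 and 66.0 CPM in PBS 1, 2 and 3 and 1556, 1035 and 585 CPM in DT 1, 2 and 3, and *Ttr*, the main transcript of this epithelium, ranged from 727 reads in PBS 3 to 32450 in DT 1. Among PBS libraries, PBS 3 had the lowest choroid plexus sum, the highest member sum (61.0 CPM) and the only reads of *Fcna* and *Cbr2*. PBS 2 had the highest choroid plexus sum, the lowest member sum (40.4 CPM) and no read of either gene. In the DT group, DT 3 had the lowest choroid plexus sum and the lowest member sum (100 CPM, beside 114 and 115). It also had the fewest DT reads of *Fcna* (25) and *Cbr2* (48). The 8 ependymal genes also all lay above 0, with 0 called and 5 at an unadjusted p below 0.05 (10.4% of all genes), at sums of 246 to 299 CPM after PBS and 325 to 533 after DT. The part of dissected choroid plexus in the member differences was not tested.

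By the distance between profiles, the root mean square of log2(CPM + 0.1) centred on each gene's mean over the 6 libraries, the genes outside the list most like *Mrc1* were *Cebpd* (0.186), *Ggta1* (0.188), *Il1r1* (0.191), *Kif18a* (0.203) and *C4b* (0.206). The nearest member was *F13a1*, at 0.181, which was closer than these 5. For *Lyve1* they were *Serpina3n* (0.275), *Cxcl5* (0.502), *Gm4724* (0.523), *Aspg* (0.586) and *A2m* (0.602), and the nearest member was *Fcna*, at 0.564. In each of these 10 genes every DT library was above every PBS library; *C4b*, for example, a complement gene, had 212 to 233 CPM after PBS and 655 to 838 after DT, and *Serpina3n*, a protease inhibitor of reactive astrocytes, 16.1 to 20.5 and 183 to 228 CPM. The likeness is measured over 6 libraries of 2 groups, so any gene of like difference is near.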

How the data were processed

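RNA-seq was made from 6 pools of ACSA-2-captured hippocampal cells. The authors trimmed reads with Trim Galore 0.5.0, mapped them with strand information to mm10 with HISAT2 2.1.0, removed rDNA reads with bedtools 2.25.0 and quantified genes with StringTie 1.3.5; edgeR 3.24.3 is named for the comparison. The deposited CPM values are a signal: read counts divided by scaled library totals. All values were whole multiples of 1 read within 0.1 read (100% of values), so reads were recovered. The deposited TPM, also from the authors, are per transcript length and were used for levels between genes. The deposited tables hold no column of other samples.

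DT was compared with PBS by limma 3.58.1 with a variance trend on log2(CPM + 0.1), for genes of mean CPM of at least 0.5, two-sided, with Benjamini-Hochberg adjustment over all 15137 genes tested, in R 4.3.3. For low genes a difference on this scale depends on the pseudocount and can lie on either side of that from counts. That of *Fcna* was below its DESeq2 value (3.21 and 3.68), and that of *Cbr2* was above it (3.85 and 3.45). edgeR 4.0.16 (quasi-likelihood) and DESeq2 1.42.0 were run on recovered reads, and other pseudocounts, filters, scalings, a replicate block and leaving out each library were tried. The fit was tested on simulated data. Members and lists were chosen with earlier results of these data known. Named genes were all members, called or defining genes of 2 related lists, at most 4 genes of each marker list, and the 5 nearest profiles to *Mrc1* and *Lyve1*. Standard errors and p-values of limma rest on the spread between 3 pools a group, moderated over the genes tested. SDs describe the spread between pools, and the limit given for a count of 0 covers counting error alone. Coordinates of genes are from GENCODE M21, promoters from RefSeq. 27 gene names had been turned into dates in the tables and could not be matched. The values of 1 listed gene are not reported here.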

Additional observations from a re-analysis of the deposited data

How the results depend on the processing

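*Mrc1*, *Lyve1* and *F13a1* were called higher in all 17 alternatives, and the 3 member calls became 5 with a pseudocount of 0.5 or 1 (*Fcna* and *Cbr2* added) or with DESeq2 (*Siglec1* and *Fcna* added) and 3 to 6 when each library was left out, with 6 without PBS replicate 3. The member median of 1.47 was 0.99 with a pseudocount of 1, which by construction draws low genes toward 0. Over all genes, the 84 higher and 24 lower calls were 35 and 11 without a variance trend, 227 and 98 with DESeq2, and 39 to 72 and 9 to 20 when each library was left out; the cause was not tested. Of the other border macrophage genes, 0 to 1 were called higher when each library was left out, with 1 without PBS replicate 1. Of the partners, 1 in place of 2 was called higher with no filter, with no variance trend and with the replicate block, 1 to 2 when each library was left out, and 1 was called lower with DESeq2 (*Slc40a1*). *Colec12*, at 0.14, ranged from -0.033 without PBS replicate 2 to 0.26 without PBS replicate 1. Pools that share a replicate number deviated together weakly (correlations 0.12, 0.01 and 0.12), so the numbers were not taken as pairs; the fit with the replicate block called 79 genes higher, 30 lower and the same 3 members. Few reads limit *Siglec1*, *Pf4*, *Folr2*, *Fcna* and *Cbr2*; a mean of at least 2 CPM leaves 5 members tested.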

Other observations

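The marker lists of neutrophils, dendritic cells and MHC class II, fibroblasts, pericytes, oligodendrocytes and neurons held no gene called in either direction in these libraries by limma. Of 8 neutrophil genes 0 were tested, and *S100a8* and *S100a9* had no read in any library. Of 11 genes of dendritic cells and MHC class II 6 were tested, at sums of 19.5 to 21.7 CPM after PBS and 14.5 to 19.2 after DT. Without *Zbtb46*, the most abundant of them, the other 10 summed to 6.52 to 6.90 and 6.41 to 8.25 CPM, with overlap, and *Cd74* was at 1.34 ± 0.305 and 1.29 ± 0.402 CPM (SD, n = 3). The 10 genes of perivascular and meningeal fibroblasts, cells that lie beside border-associated macrophages, summed to 67.8 to 105 CPM after PBS and 77.3 to 104 after DT, and the 10 genes of pericytes and smooth muscle to 810 to 1243 and 960 to 1262 CPM, both with overlap. The 8 oligodendrocyte genes summed to 394 to 506 CPM after PBS and 350 to 434 after DT, and the 8 neuronal genes to 971 to 1015 and 849 to 1063 CPM.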
